A study of Mus musculus with 12 samples.

Results

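Fos, Junb, Ier2, Dusp1, Klf4, Nr4a1 and Btg2 are immediate early genes, whose transcription starts within minutes of a stimulus without new protein synthesis. These 7 genes were chosen by name, with earlier results of these data known, and read across 12 RNA-seq libraries of mouse trigeminal ganglion. They are 7 of the 9969 genes that could be named by position on the GRCm38 assembly, from 56941 counted intervals, and all 7 passed the filter on low counts. All mice were 8-week-old C57BL/6J females, and each of the 4 groups had 3 libraries. The first group had a keratectomy and was then treated with electrical stimulation (injury with stimulation). The second was collected 2 weeks after keratectomy without stimulation (injury), the third had stimulation without a wound (stimulation alone), and the fourth was untreated (control). Keratectomy removed the surface layers of a 1.5 mm disc of central cornea from 1 eye chosen at random. It was done under ketamine and xylazine, and Ethiqa XR, an extended-release buprenorphine, was given afterwards. Stimulation used a biphasic ramp of 300 µA at 20 Hz for 4 min daily over 14 days under isoflurane, with the cathode on the skin over the orbit.

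The ketamine, xylazine and opioid doses went with the wound and the isoflurane sessions with the current, so these exposures and the treatments cannot be told apart. The study's description mentions sham electrodes; none of the 12 libraries is labelled as sham. The sources give neither the number of mice or ganglia per library, nor the side of the ganglion relative to the wounded eye, nor the time between the last session and collection. The p-values therefore measure the spread between libraries. The title names diabetic neuropathy, and no label mentions diabetes. Counted reads ranged from 7952798 to 10751547 per library, and 5 sensory neuron marker genes were abundant in every library, at a sum of 4229 CPM or more. CPM, the unit of all levels here, is the read count scaled to a common library size after TMM normalization.

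The trigeminal ganglion holds the cell bodies of the sensory neurons that supply the cornea. In such neurons, and in the glia, vessels and immune cells around them, calcium entry, growth factors, cytokines and stress activate MAP kinases, which switch on the transcription factors SRF and CREB at the promoters of these genes. Fos and Junb encode subunits of AP-1, a dimeric transcription factor. Ier2, Klf4 and Nr4a1 encode other nuclear regulators, Btg2 encodes an antiproliferative protein that recruits a deadenylase to mRNAs, and Dusp1 encodes a phosphatase that switches MAP kinases off. Their transcripts are short-lived, and the same set is also known to be induced by handling and dissociation of tissue.

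All but Klf4 were read through only a part of their exons, because reads placed on GRCm38 coordinates had been counted in gene intervals of GRCm39. Klf4 (chr4:55527143-55532466, minus strand) was covered over all 3049 bp of its exons. Junb (chr8:84974484-84978718, minus strand) was covered over 1439 bp, 62.5% of its exons, of which 943 bp were coding. The remaining 5 genes were covered over 9.88% to 27.4% of their exons. For Fos (chr12:85473890-85477273, plus strand) this was 637 bp, 572 bp of them coding. Ier2 (chr8:84661331-84662852, minus strand) was read through 417 bp, and Btg2 (chr1:134075170-134079120, minus strand) through 503 bp with another 197 bp of intron. For Dusp1 (gene at chr17:26505590-26562128, minus strand) the counted interval held 327 exon bp next to the gene's 3′ end and no coding sequence, and it was deposited under a haemoglobin pseudogene's symbol. Nr4a1 (chr15:101254269-101274795, plus strand) rests on the least certain window: 352 of its 420 exon bp are exon in only 1 of 4 annotated transcripts, and the interval also holds 995 bp of intron. Because counting ignored strand, reads from the opposite strand are included for every gene. Over the 12 libraries the totals ran from 709 reads for Nr4a1, with 22 to 214 per library, to 8952 for Junb.

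The start-site sequences show what these promoters share. Of the 7 genes, 6 had a RefSeq window (GRCm38.p6) of 250 bases before to 50 bases after the transcription start, and Ier2 is named only. All 6 windows held TGACG, the core of the CREB-binding cAMP response element, on one strand or the other, as did 20.8% of 32851 RefSeq windows of the same length. The whole palindrome TGACGTCA, in which a TGACG on each strand overlaps, was found in Dusp1 and Btg2, and in 1.79% of all windows. The windows below are given 5′ to 3′ on the gene's own strand, in lower case, with TGACG or its reverse complement CGTCA in capitals. Fos and Nr4a1 are shown for their separate copies, Dusp1 and Btg2 for the palindrome. They lie at chr12:85473640-85473939 (Fos, plus), chr17:26508423-26508722 (Dusp1, minus), chr1:134079106-134079405 (Btg2, minus) and chr15:101266596-101266895 (Nr4a1, plus).
Fos: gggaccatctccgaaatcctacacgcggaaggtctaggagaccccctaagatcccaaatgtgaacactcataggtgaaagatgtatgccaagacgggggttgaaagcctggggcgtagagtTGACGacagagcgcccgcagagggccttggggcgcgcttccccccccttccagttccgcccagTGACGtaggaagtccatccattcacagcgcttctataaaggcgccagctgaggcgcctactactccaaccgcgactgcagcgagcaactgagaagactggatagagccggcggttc
Dusp1: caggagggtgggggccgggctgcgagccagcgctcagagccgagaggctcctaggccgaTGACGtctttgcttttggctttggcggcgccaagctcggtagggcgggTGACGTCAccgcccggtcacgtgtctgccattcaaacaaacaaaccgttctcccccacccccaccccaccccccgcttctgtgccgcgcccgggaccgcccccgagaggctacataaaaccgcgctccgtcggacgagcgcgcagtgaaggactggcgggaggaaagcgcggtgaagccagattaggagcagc
Btg2: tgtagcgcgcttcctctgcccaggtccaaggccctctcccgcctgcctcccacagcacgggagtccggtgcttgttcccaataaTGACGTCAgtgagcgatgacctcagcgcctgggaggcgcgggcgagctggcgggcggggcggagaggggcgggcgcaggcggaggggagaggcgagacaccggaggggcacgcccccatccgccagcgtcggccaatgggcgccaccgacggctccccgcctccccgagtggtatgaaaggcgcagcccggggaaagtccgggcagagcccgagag
Nr4a1: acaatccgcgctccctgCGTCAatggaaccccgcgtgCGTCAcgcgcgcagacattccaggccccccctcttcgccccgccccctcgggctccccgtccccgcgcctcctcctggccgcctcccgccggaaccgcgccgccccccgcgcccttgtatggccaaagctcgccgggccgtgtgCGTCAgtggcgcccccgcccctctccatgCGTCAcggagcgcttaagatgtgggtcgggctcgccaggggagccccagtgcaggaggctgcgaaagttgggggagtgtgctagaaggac
The Fos copies began 129 and 66 bases upstream of the start, and Nr4a1 had 4 copies, at 233, 213, 69 and 40 bases upstream. Dusp1 had 3 matches, 2 of them overlapping in the palindrome, and the 2 matches of Btg2 were the palindrome's. Junb and Klf4 had 1 copy each. None of the 6 windows held a CArG box, the SRF site, in its exact form of CC, 6 A or T bases and GG (1.63% of all windows). None held the AP-1 motif TGANTCA (7.81%), and both motifs were sought on either strand. Sites more than 250 bases before the start, or with a mismatch, were not sought. The absence therefore holds for these windows and exact motifs only. TATAAA was present in Fos and Junb and in 13.6% of all windows. A match is a description of the letters and was not tied to binding of a factor in these samples.

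Each of the 7 genes had a higher mean in both groups with keratectomy, stimulated or not, than in either group without a wound. On the scale of CPM per counted kilobase, control ganglia averaged 56.4 for Dusp1, 27.0 for Junb, 22.7 for Ier2, 14.5 for Btg2, 10.5 for Fos, 8.90 for Nr4a1 and 7.48 for Klf4. The windows differ in exon use, so this order is approximate. In whole ganglia, more cells expressing a gene and more RNA per cell cannot be told apart.

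**Figure D1:**
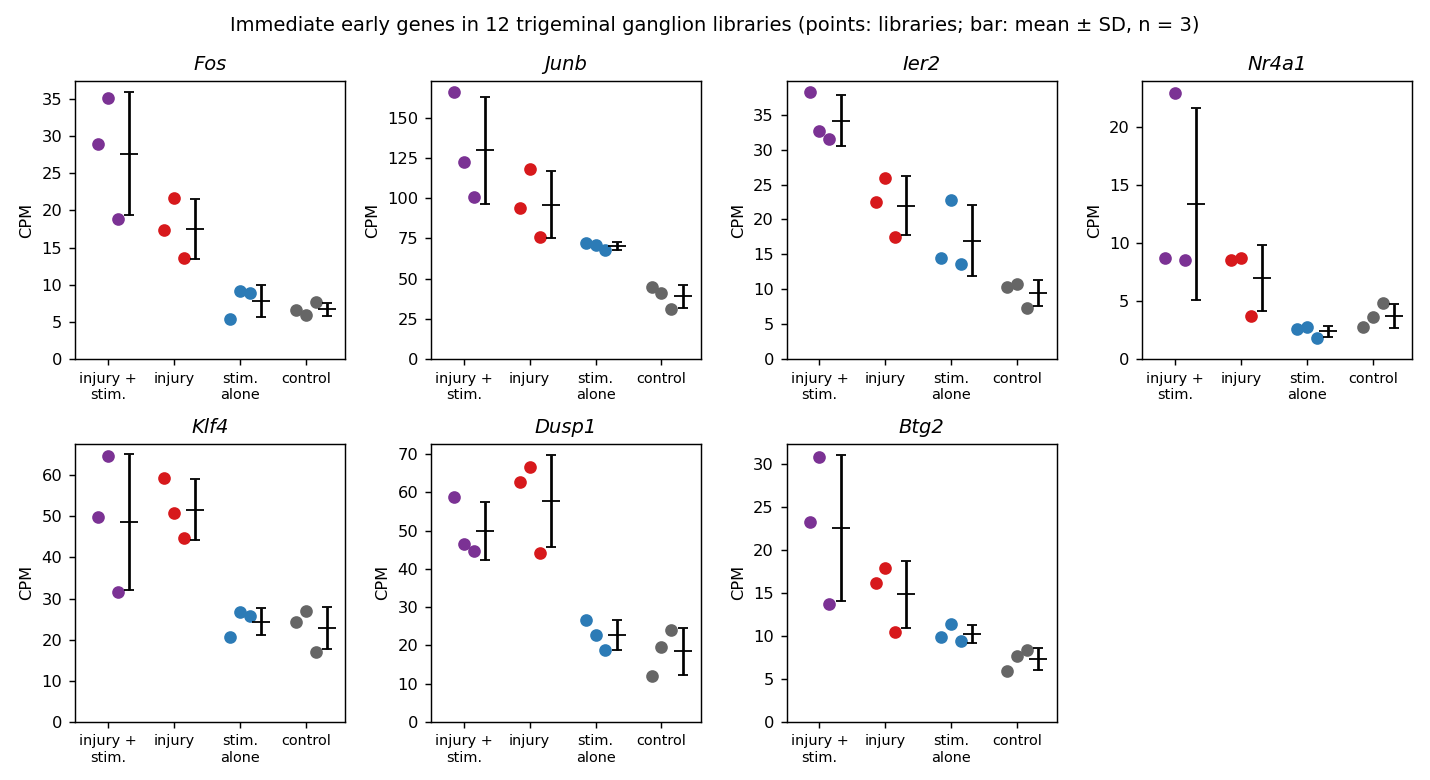
Level of each immediate early gene in CPM (linear axis) in the 12 libraries, 1 panel per gene, with injury plus stimulation leftmost and control rightmost; points are libraries and bars are means with SD (n = 3). Fos sits between 13.6 and 35.2 CPM in the 6 keratectomy libraries and between 5.33 and 9.15 CPM in the other 6.

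Fos, the DNA-binding partner of the Jun proteins in AP-1, had 28.9, 35.2 and 18.8 CPM after injury with stimulation and 17.3, 21.7 and 13.6 CPM after injury. It had 5.33, 9.15 and 8.92 CPM with stimulation alone, and 6.54, 5.92 and 7.61 CPM in controls. Every keratectomy library stood above every library without keratectomy, while injury with stimulation overlapped injury, and stimulation alone overlapped control. Against control the log2 fold change was 2.04 ± 0.28 (SE) after injury with stimulation (adjusted p = 0.0036) and 1.39 ± 0.28 after injury (adjusted p = 0.0024), in edgeR's quasi-likelihood test with Benjamini-Hochberg adjustment over all 13053 intervals tested. With stimulation alone the difference from control was 0.23 ± 0.28 (adjusted p = 0.58). Neighbours in the order of Fos levels, injury with stimulation against injury and stimulation alone against control, did not pass the test.

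Junb, another AP-1 subunit, was the member with the most reads. It had 165.9, 122.1 and 100.9 CPM after injury with stimulation, 93.7, 118.0 and 76.1 CPM after injury, 72.4, 71.1 and 67.6 CPM with stimulation alone, and 44.5, 41.2 and 31.0 CPM in controls. All 9 libraries of treated mice lay above all 3 controls, and the stimulation-alone libraries lay between controls and the keratectomy libraries with no overlap. Junb rose against control after injury with stimulation (1.74 ± 0.20, adjusted p = 0.0016), after injury (1.30 ± 0.20, adjusted p = 0.00072) and with stimulation alone (0.85 ± 0.20, adjusted p = 0.0037). The last call ended when the trend of fold changes with GC content and length of the intervals was removed (0.28, adjusted p = 0.33; range over all alternatives 1.2e-05 to 0.33).

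Ier2, a small nuclear protein of the immediate early response, had 38.3, 32.7 and 31.5 CPM after injury with stimulation and 22.5, 25.9 and 17.5 CPM after injury. Stimulation alone gave 14.5, 22.8 and 13.6 CPM and control 10.3, 10.7 and 7.38 CPM. Here the 2 keratectomy groups did not overlap, but stimulation alone overlapped injury through its second library. Ier2 rose against control after injury with stimulation (1.85 ± 0.23, adjusted p = 0.0029), after injury (1.22 ± 0.23, adjusted p = 0.0020) and with stimulation alone (0.84 ± 0.23, adjusted p = 0.012). The last call was lost without stimulation-alone replicate 2 (adjusted p = 0.13), without control replicate 3 (adjusted p = 0.068) and once that trend was removed (0.37, adjusted p = 0.27); over all alternatives the adjusted p ran from 0.0035 to 0.27.

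Btg2 had 23.2, 30.8 and 13.7 CPM after injury with stimulation, 16.2, 17.8 and 10.4 CPM after injury, 9.86, 11.4 and 9.39 CPM with stimulation alone, and 5.88, 7.62 and 8.32 CPM in controls. The third injury library overlapped the stimulation-alone range, and no treated library fell to the control range. Against control Btg2 rose after injury with stimulation (1.63 ± 0.29, adjusted p = 0.0046) and after injury (1.03 ± 0.29, adjusted p = 0.013), and the difference with stimulation alone was 0.49 ± 0.29 (adjusted p = 0.23). The injury call was lost without injury replicate 2 (adjusted p = 0.065) or control replicate 1 (adjusted p = 0.063), with a range of 0.0030 to 0.065 over all alternatives.

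Klf4, a zinc-finger transcription factor with roles in epithelium, endothelium and myeloid cells, was the member read over its whole transcript. It had 49.9, 64.6 and 31.5 CPM after injury with stimulation, 59.5, 50.8 and 44.7 CPM after injury, 20.6, 26.8 and 25.7 CPM with stimulation alone, and 24.4, 27.0 and 17.1 CPM in controls. The keratectomy groups overlapped each other and stood clear of the other 2 groups, which also overlapped each other. Klf4 rose against control after injury with stimulation (1.09 ± 0.23, adjusted p = 0.0064) and after injury (1.18 ± 0.23, adjusted p = 0.0023), against 0.10 ± 0.23 with stimulation alone (adjusted p = 0.79).

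Nr4a1, an orphan nuclear receptor, was the least abundant in CPM and the most uneven. It had 8.75, 22.9 and 8.51 CPM after injury with stimulation, 8.54, 8.71 and 3.75 CPM after injury, 2.55, 2.76 and 1.83 CPM with stimulation alone, and 2.77, 3.64 and 4.80 CPM in controls. The third injury library lay within the control range, and the highest stimulation-alone library lay just under the lowest control. Nr4a1 rose after injury with stimulation against control (1.84 ± 0.42, adjusted p = 0.0078). After injury alone it did not pass (0.91 ± 0.42, adjusted p = 0.11), nor did the lower value with stimulation alone (−0.66 ± 0.45, adjusted p = 0.29). The second library of injury with stimulation carried much of the first difference, which was 1.18 without it (adjusted p = 0.020, range over all alternatives 9.5e-06 to 0.052).

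Dusp1, the MAP kinase phosphatase and the negative regulator in the set, had 58.7, 46.5 and 44.7 CPM after injury with stimulation and 62.7, 66.6 and 44.0 CPM after injury. It had 26.6, 22.7 and 18.8 CPM with stimulation alone and 11.9, 19.5 and 24.0 CPM in controls. The keratectomy groups overlapped each other and lay clear of the other libraries. Dusp1 rose against control after injury with stimulation (1.44 ± 0.23, adjusted p = 0.0046) and after injury (1.65 ± 0.23, adjusted p = 0.00043), and stood at 0.30 ± 0.23 with stimulation alone (adjusted p = 0.37). Its injury fold change was the highest of the 7, and its mean was lower after injury with stimulation than after injury, as was that of Klf4.

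Counted together, 6 of the 7 genes rose after injury against control, all but Nr4a1, where 19.3% of all intervals tested were called higher. Their median log2 fold change was 1.22, against 0.03 over all intervals. After injury with stimulation against control all 7 rose, where 12.3% of all intervals were called higher, with a median of 1.74 against −0.02 over all intervals. These 2 comparisons share the control libraries. The members were chosen with earlier results of these data known, so counts of members beside shares of all intervals are descriptions. Without the third library of injury with stimulation, Dusp1 and Nr4a1 missed the threshold in the second comparison (adjusted p = 0.052 each), and the calls over all intervals fell to 11.

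**Figure D2:**
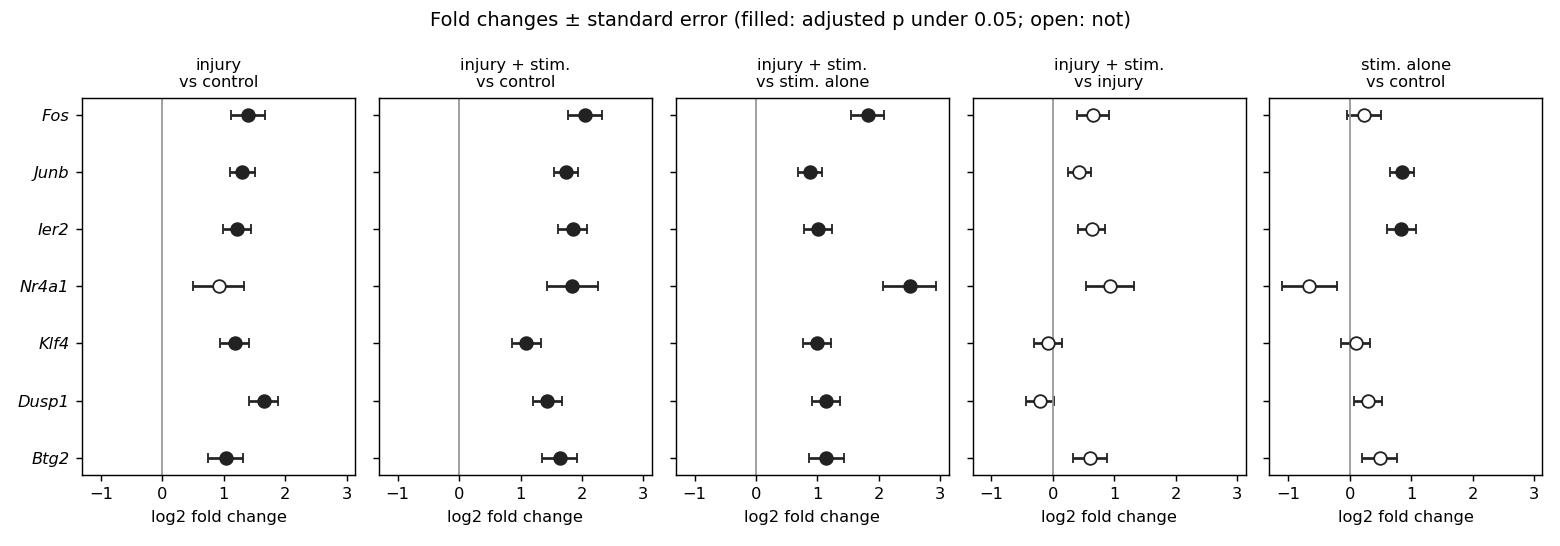
Log2 fold changes with standard errors for the 7 genes in the tested contrasts, with filled symbols for an adjusted p under 0.05. All 7 genes are filled for injury with stimulation against control and none for injury with stimulation against injury.

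Stimulation of wounded mice against wounding alone is the comparison that bears on the treatment. None of the 7 genes passed the test with injury plus stimulation against injury, in edgeR or in DESeq2, where 1.54% of all intervals were called in either direction. At an unadjusted p under 0.05, 5 of the 7 passed in edgeR: Fos (0.65 ± 0.26, adjusted p = 0.30), Junb (0.43 ± 0.19, adjusted p = 0.36), Ier2 (0.63 ± 0.22, adjusted p = 0.23), Nr4a1 (0.93 ± 0.40, adjusted p = 0.34) and Btg2 (0.60 ± 0.27, adjusted p = 0.38). All 5 had positive values. The share of all intervals under that unadjusted threshold was not counted, so 5 of 7 has no background here. Dusp1 (−0.21 ± 0.22, adjusted p = 0.79) and Klf4 (−0.08 ± 0.23, adjusted p = 0.94) had negative ones. The median was 0.60, against 0.00 over all intervals. Without the second library of injury with stimulation the Nr4a1 value was 0.36.

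In mice without a wound, stimulation alone against control gave 2 calls among the 7, Junb and Ier2, where 18.2% of all intervals were called higher. The median of the 7 was 0.30, against 0.03 over all intervals. A count of 2 of 7 does not stand clear of that background. Which genes were called depended on the GC and length trend: with it removed Dusp1 was the only call (0.89, adjusted p = 0.026; range over all alternatives 0.026 to 0.87), and with a replicate block added as well none of the 7 passed.

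When both groups had been stimulated, injury with stimulation against stimulation alone, all 7 genes were called higher, where 2.21% of all intervals were. The log2 fold changes were 1.82 ± 0.27 for Fos (adjusted p = 0.0058), 0.88 ± 0.19 for Junb (adjusted p = 0.019), 1.01 ± 0.22 for Ier2 (adjusted p = 0.019) and 1.14 ± 0.23 for Dusp1 (adjusted p = 0.014). Klf4 stood at 1.00 ± 0.23 (adjusted p = 0.023), Nr4a1 at 2.50 ± 0.43 (adjusted p = 0.0092) and Btg2 at 1.15 ± 0.28 (adjusted p = 0.028). The median was 1.14, against −0.00 over all intervals. Nr4a1 had its widest difference here, and all 3 of its libraries after injury with stimulation stood above 8 CPM against under 3 CPM with stimulation alone. With these 6 libraries fitted by themselves, none of the 7 and none of all intervals passed (adjusted p of the 7 from 0.13 to 0.15), although the fold changes of the 7 were as large, such as 1.87 ± 0.30 for Fos and 0.93 ± 0.21 for Junb. The cause was not tested. Klf4 and Btg2 missed the threshold with total count scaling (adjusted p = 0.074 and 0.071), which left 5 calls, and Dusp1 missed it after removal of the GC and length trend (0.98, adjusted p = 0.053), which left 6. Leaving out 1 library left 2 to 7 calls among the members: 3 without injury-with-stimulation replicate 1 or stimulation-alone replicate 1, and 2 without stimulation-alone replicate 3.

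Separation by wounding was also read directly from the libraries. For 4 of the 7 genes, Fos, Junb, Dusp1 and Klf4, all 6 keratectomy libraries stood above all 6 without keratectomy, which held for 0.368% of all intervals tested. Ier2 had a lowest keratectomy library of 17.5 CPM against a highest one without keratectomy of 22.8 CPM. The corresponding values were 3.75 and 4.80 CPM for Nr4a1 and 10.4 and 11.4 CPM for Btg2.

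The interaction term asks whether the change with stimulation differed between wounded and unwounded mice. None of the 7 genes passed in edgeR, where 19.2% of all intervals were called in either direction, and their median was −0.18, against −0.06 over all intervals. At an unadjusted p under 0.05, for which no share of all intervals was counted, only Nr4a1 passed (1.59 ± 0.60, adjusted p = 0.071). DESeq2 called it (1.68, adjusted p = 0.031). Over all alternatives its adjusted p ran from 0.025 to 0.19, and without the second library of injury with stimulation its interaction was 1.06.

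Base composition of the counted windows moved with the fold changes. Across 10344 intervals, fold changes rose with the GC content of the interval in 3 comparisons: Spearman rho was 0.35 for injury with stimulation against control, 0.30 for injury against control and 0.51 for stimulation alone against control, given as descriptions across intervals. They fell with GC content for injury with stimulation against stimulation alone (−0.32) and for the interaction (−0.45). The member windows ranged from 37.6% GC in Dusp1 to 61.6% in Junb. After the trend with GC and length was removed, all 7 genes were called higher after injury with stimulation and all 7 after injury. Nr4a1 was now included in the second (1.19, adjusted p = 0.040, range over its alternatives 0.040 to 0.29). In that fit, 1399 of 10344 intervals were called in either direction after injury with stimulation, 2693 after injury and 1962 with stimulation alone. With stimulation alone Junb and Ier2, the members with the highest GC content, lost their calls and Dusp1, with the lowest, gained one. Fos and Klf4 changed sign without a call, to −0.24 and −0.30.

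**Figure D3:**
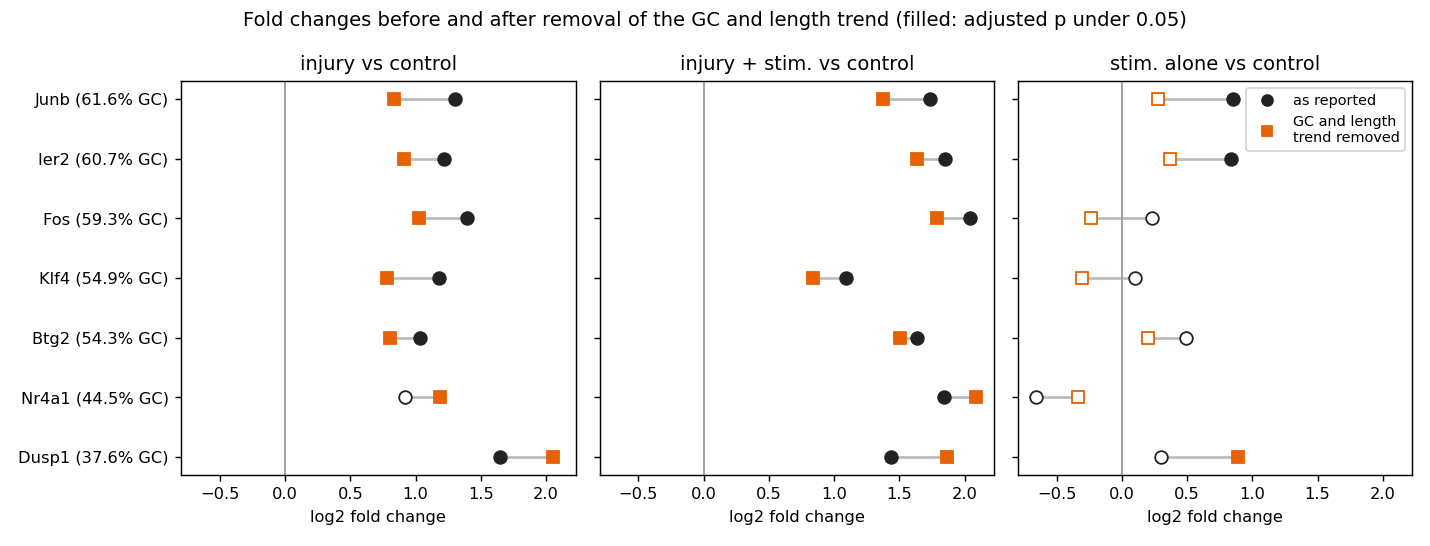
Log2 fold change of each gene as reported (circles) and after removal of the GC and length trend (squares), with genes ordered by the GC content of the counted window and filled symbols for an adjusted p under 0.05. With stimulation alone, Junb and Ier2 are filled as circles only and Dusp1 as a square only.

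The 7 genes varied together across libraries. Over the 12 libraries, Pearson's r of log2 CPM ranged from 0.61 (Junb with Nr4a1) to 0.96 (Junb with Ier2) over the 21 pairs, with a median of 0.83. These are descriptions that include the differences between groups. The mean of the standardised members stood at 0.52 to 1.41 after injury with stimulation, 0.07 to 0.88 after injury, −0.69 to −0.34 with stimulation alone and −1.15 to −0.90 in controls. Of 3062 genes ranked by r with this mean profile, Sik1 was first (r = 0.89, 12 libraries), and Cramp1l (0.83), Pank2 (0.81), Slc19a2, Qtrt1 and Edem1 (0.79 each) followed. Sik1 encodes a salt-inducible kinase and is itself an immediate early gene. It averaged 19.9 ± 0.883 CPM after injury with stimulation, 15.7 ± 2.38 after injury, 10.3 ± 0.955 with stimulation alone and 8.27 ± 2.26 in controls (SD, n = 3 each), and its 6 keratectomy libraries also stood above the other 6. It rose against control after injury with stimulation (1.26, adjusted p = 0.0046) and after injury (0.92 ± 0.22, adjusted p = 0.0059).

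Of 73 further genes listed, 14 could be tested. After injury with stimulation against control 4 of the 14 were higher and none lower (over all intervals 12.3% were higher and 4.93% lower), namely Midn, Sik1, Srf and Vgf. After injury 6 were higher and 1 lower, with a median of 0.53 (all intervals, 19.3% higher and 11.7% lower). After stimulation alone 5 were higher and none lower (all intervals, 18.2% higher and 11.7% lower). The 4 with the smallest p after injury were Midn (1.28, adjusted p = 0.0013), Arc (1.56, adjusted p = 0.0029), Klf5 (0.72, adjusted p = 0.0033) and Sik1. Arc encodes a neuronal protein of synaptic plasticity. Srf and Vgf were the remaining higher genes, and Bdnf, a neurotrophin, was lower (−0.75, adjusted p = 0.037). With stimulation alone the 5 were Arc (1.26), Vgf (1.76), Srf (1.05), Midn (1.04) and Ier5 (0.97). None passed between injury with stimulation and injury (all intervals, 1.54% in either direction). Against stimulation alone, injury with stimulation gave 2 higher, Sik1 and Per2 (all intervals, 2.21% higher). Of 22 listed paralogues of the members, 4 were tested, Ier5, Klf5, Klf10 and Nr4a3. Klf5 was the only one called after injury, where 19.3% of all intervals were called higher. Of the remaining AP-1 family genes, 1 of 19 could be tested, Batf2, and it passed in no comparison.

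The kinases and transcription factors that act ahead of these genes included genes called higher and genes called lower. Of 46 listed genes of the MAP kinase, SRF and CREB pathways, 22 were tested. With injury plus stimulation against control 6 were higher and none lower, after injury 7 were higher and 5 lower (median 0.06), and with stimulation alone 8 were higher and 1 lower, beside the shares of all intervals just given. After injury the 4 with the smallest p were the ERK kinase Map2k2 (1.18, adjusted p = 0.0012), the ribosomal S6 kinases Rps6ka1 (1.04, adjusted p = 0.0026) and Rps6ka4 (0.79, adjusted p = 0.0045), and the JNK kinase Map2k4 (−1.29, adjusted p = 0.0032). Of 29 other feedback inhibitors of these pathways, 4 were tested. After injury 1 was higher, the phosphatase Dusp16 (0.54, adjusted p = 0.011), and 1 was lower, the Ras GTPase activator Rasa1 (−1.50, adjusted p = 0.010). Over all intervals 19.3% were higher and 11.7% lower.

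Sums of marker genes of other cell types also differed between the groups, though not all in the pattern of the 7 genes. The 2 measurable red blood cell genes, Alas2 and Slc4a1, summed to 41.2 to 87.8 CPM after injury with stimulation and 67.8 to 82.4 after injury. With stimulation alone the sum was 11.6 to 29.7 CPM, and in controls 22.0 to 40.6. This sum separated all 6 keratectomy libraries from the other 6 only narrowly, at 41.2 against 40.6 CPM. Neither Alas2 nor Slc4a1 did so by itself. The other 5 of 7 listed red blood cell genes were not tested. The 8 oligodendrocyte genes tested of 15 listed summed to 1684 to 2375 CPM after injury with stimulation, 3984 to 4941 after injury, 1911 to 2379 with stimulation alone and 1658 to 1987 in controls. Cnp and Mal, with injury means of 1817 and 1506 CPM, made up most of the injury sum. The 8 meningeal fibroblast genes of 16 summed to 8341 to 10073 CPM after injury with stimulation and 27469 to 27836 after injury, against 4716 to 9218 with stimulation alone and 9235 to 10093 in controls. Ptgds alone averaged 21985 CPM after injury, where the sum averaged 27660 CPM. Between injury with stimulation and injury, 7 of the 8 oligodendrocyte genes and 6 of the 8 meningeal genes were called lower, whereas none of the 7 immediate early genes was called. Over all intervals, 196 of 13053 were called lower in that comparison. Macrophage genes (6 of 14) likewise summed highest after injury, at 99.0 to 113 CPM after injury with stimulation, 188 to 223 after injury, 73.9 to 98.4 with stimulation alone and 120 to 138 in controls. After injury against control 3 of these 6 were called higher (all intervals, 19.3%). The only 1 called lower was Mrc1 (−1.44, adjusted p = 0.048), beside 11.7% of all intervals. Schwann cell genes (6 of 11) summed to 3414 to 6524 CPM after injury with stimulation and 6710 to 8513 after injury. With stimulation alone the sum was 5005 to 5366 CPM, and in controls 3185 to 4156, which overlapped injury with stimulation. Mag, Mal and Cnp are in both this sum and the oligodendrocyte sum.

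Some sums separated treated from control libraries, as Junb, Ier2 and Btg2 did. The 5 sensory neuron genes of 15 summed to 5732 to 10465 CPM after injury with stimulation, 6497 to 8002 after injury and 7817 to 9428 with stimulation alone, against 4229 to 4900 in controls. After injury 2 of the 5 were called higher (all intervals, 19.3%), Thy1 and Uchl1, the latter averaging 3700 CPM against 1961 in controls. Nefm (0.22), Avil (0.33) and Scn10a (−0.09) were not called. Against control, 4 were called higher after injury with stimulation (all intervals, 12.3%) and 5 with stimulation alone (18.2%). The 4 endothelial genes of 14 summed to 27.8 to 34.4 CPM after injury with stimulation, 34.8 to 48.3 after injury and 41.4 to 48.3 with stimulation alone, against 20.6 to 25.3 in controls. The sum of 3 mitochondrially encoded genes lay under that of every unstimulated library in both stimulated groups, at 28535 to 38289 CPM after injury with stimulation and 16353 to 25945 with stimulation alone, against 44438 to 50213 after injury and 40190 to 52959 in controls. The part of these cell types, or of mitochondrial RNA, in the differences of the 7 genes was not tested.

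**Figure D4:**
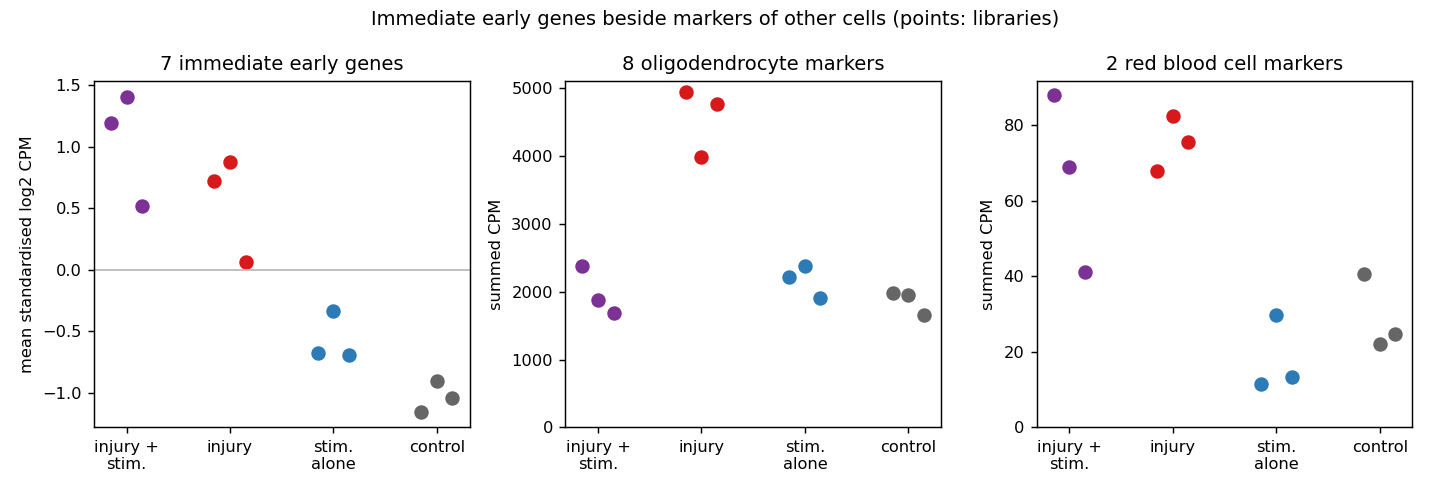
Mean standardised log2 CPM of the 7 immediate early genes (left) beside the summed CPM of 8 oligodendrocyte genes (middle) and 2 red blood cell genes (right), on linear axes, with 1 point per library and 3 libraries per group. The red blood cell sum lies at 41.2 CPM or more in the 6 keratectomy libraries and at 40.6 CPM or less in the other 6, and the oligodendrocyte sum lies at 3984 CPM or more in the injury libraries.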

How the data were processed

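The values were whole-number counts deposited by the authors. featureCounts 2.0.6 made them, per the file headers, with paired input and no strand setting, single reads counted, and reads allowed in several overlapping genes, on Ensembl 110 gene models for GRCm39. Salmon 1.10.2, FastQC and DESeq2 are the tools in the submitters' processing notes. The planned edgeR test had assumed Salmon output and was run on these counts unchanged. Neither aligner version nor alignment build is given in the sources used here. Only 36.0% of nuclear intervals overlapped GRCm38 exons, yet 98.6% to 99.3% of nuclear counts fell in them, so genes were named by GRCm38 position with GENCODE M21 models and no conversion of coordinates. An interval over at least 100 exon bp of exactly 1 gene took its name.

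The members and gene lists were chosen with earlier results of these data known. edgeR 4.0.16 quasi-likelihood tests (TMM, filterByExpr, Benjamini-Hochberg over 13053 intervals, 4771 of them named, threshold 0.05) used 1 fit of all 12 libraries in R 4.3.3. The biological coefficient of variation was 0.235. A fold change is given with its standard error and a mean level with its standard deviation. The fit was tested on simulated data. Log2 CPM for correlations used a prior count of 2. From each list the text names up to 4 tested genes with the smallest p, and any other gene it names was chosen after its values were seen. The 6 genes most like the members' mean profile had at least 5 CPM and no predicted-gene symbol. Alternatives were RLE and total count scaling, DESeq2 1.42.0, no filter, fits of only the groups compared, and a replicate block. Others were removal of a GC and length trend (spline with 4 degrees of freedom), with and without that block, and leaving out each library. A further alternative summed all intervals over exons of only that member, which added to Junb alone (104 bp, 143 reads). An interval over 549 bp of Ier2 exon that also overlapped Gm26664 (3130 reads) was not used. Tables and plots were made in Python 3.11.15 with pandas 2.3.3, numpy 2.4.6 and matplotlib 3.10.9. Promoter sequences are RefSeq's, for GRCm38.p6.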

Additional observations from a re-analysis of the deposited data

Results flagged for a closer look

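For Nr4a1, all 3 libraries of injury with stimulation (mean 13.4 CPM) lay above the injury mean of 7.00 CPM, and all 3 libraries of stimulation alone (mean 2.38 CPM) lay below the control mean of 3.74 CPM. The test of that difference gave an interaction of 1.59 on the log2 scale, which missed the threshold in edgeR (adjusted p = 0.071, range over alternatives 0.025 to 0.19). The libraries stood at 8.75, 22.9 and 8.51 CPM after injury with stimulation and at 8.54, 8.71 and 3.75 CPM after injury. Without the library at 22.9 CPM the interaction was 1.06.

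Of 3 lists, 14 other immediate early genes, 22 genes of the MAP kinase, SRF and CREB pathways and 4 feedback inhibitors were tested. Srf is in both of the first lists. By edgeR's interaction test, 11 of these genes were called for a change with stimulation that differed between wounded and unwounded mice. The interaction was positive for the S6 kinase Rps6ka3 (1.103) and the clock gene Per2 (0.98). It was negative for Arc (−2.28), Vgf (−1.64), Rps6ka1 (−1.61), Map2k2 (−1.16), Rps6ka4 (−1.07), Midn (−1.05), Srf (−0.97), Mapkapk2 (−0.67) and Dusp16 (−0.61). Over all intervals 19.2% were called in this test. Interaction fold changes fell with GC content (Spearman rho −0.45). With the GC and length trend removed, 669 of the 10344 intervals in that fit were called, against 2507 of 13053 in the main fit. The calls of these 11 genes were not checked with that trend removed.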

How the results depend on the processing

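Fold changes of the 7 genes kept their sign wherever they were called, and RLE scaling changed no count of members. Counts over all intervals moved more. Fits with the GC trend removed tested 10344 intervals, against 13053 in the main fit, so part of any drop in their counts can come from the smaller set. Injury with stimulation against injury called 201 intervals, but 53 with total count scaling, 368 with DESeq2, 364 without a filter, 127 with only those groups and 97 with replicate block and GC trend removed. Against stimulation alone it called 531, but 1166 with DESeq2, 0 with only those groups, 294 with the replicate block, 218 with the GC trend removed and 66 with both. Against control it called 2247, but 1125 with only those groups, 1399 with the GC trend removed and 617 with both. Removing the GC trend, and then adding the block, left 2693 and 2238 of 4046 for injury, 1962 and 1451 of 3896 for stimulation alone, and 669 and 396 of 2507 for the interaction. Among members, the interaction had 1 call with DESeq2 and 1 without a filter, injury with stimulation against stimulation alone had 0 with only those groups, and stimulation alone had 1 with the GC trend removed and 0 with the block added. Leaving out 1 library gave 5 to 338 intervals for injury with stimulation against injury, 74 to 1804 against stimulation alone, 11 to 4349 against control, 2465 to 4847 for injury, 2640 to 4593 for stimulation alone and 1126 to 3407 for the interaction. The member counts ran 0, 2 to 7, 5 to 7, 5 to 6, 1 to 2 and 0 to 1 in that order. The cause was not tested. Total count scaling moved the median of all intervals by −0.22 after injury and 0.13 with stimulation alone, and Btg2 after injury then missed the threshold (0.82, adjusted p = 0.065). Labels give groups the same replicate numbers. The file headers number the control libraries differently, and the label numbers were used. Deviations of same-numbered libraries had r of −0.26 to 0.20 over 18 pairs, 1 above 0.1, and 3 of 12 libraries correlated best with their own number. No pairing by these numbers was seen, but with 3 libraries per group this check cannot exclude it. The block by itself changed no count of members. Depth limits Nr4a1 most, at 22 to 214 reads per library.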
